A study of Mus musculus with 35 samples.

Results

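The 10 cathepsin genes Ctsa, Ctsb, Ctsc, Ctsd, Ctsf, Ctsh, Ctsk, Ctsl, Ctss and Ctsz were followed through the postnatal development of mouse microglia, the resident macrophages of the brain. They were taken by symbol from a table of raw mRNA counts, and all 10 were found among its 55401 gene identifiers. All 10 also passed the filter on low counts, which kept the 17612 genes with at least 0.5 CPM (counts scaled to the library's total) in at least 5 mice. The cells came from the whole brains of wild-type C57BL/6 mice of both sexes, untreated and without a transgene, at postnatal day 6 (P6), postnatal day 15 (P15) and 8 weeks. They were captured by immunopanning on CD45, a surface protein that other leukocytes carry too. Each mouse gave 1 library, with 5 females and 6 males at P6, 6 females and 6 males at P15, and 6 females and 6 males at 8 weeks. The study removed 1 mouse as an outlier without naming it in its text. Here P6 female 6, which stood apart as described below, was left out, so values are over 34 mice (10 at P6 and 12 at each later age) unless that mouse is named.

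Cathepsins are proteases that are made as inactive precursors, carried to endosomes and lysosomes, and activated there at low pH. They fall into classes by the residue that cuts the peptide bond, and here Ctsa is a serine protease, Ctsd is an aspartic protease and the other 8 are cysteine proteases of the papain family. In microglia and other macrophages they break down engulfed cells and myelin, and Ctss in particular trims the invariant chain during antigen presentation by MHC class II.

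The genes lie on 7 chromosomes of GRCm38, and only Ctsk (chr3:95499256-95509362) and Ctss (chr3:95526786-95556403) are neighbours, 17423 bases apart on the same strand. Promoter sequences (250 bases before to 50 bases after a start site, RefSeq, GRCm38.p6) were at hand for 8 of the 10 genes, with 2 start sites for Ctsa, and not for Ctsb and Ctsh. They were read for 2 short motifs on both strands that do not overlap each other. CACGTG is the core of the site bound by Tfeb, a regulator of lysosomal genes, and was present in 7.15% of 32851 RefSeq promoters of the same length. GAGGAA holds the GGAA core bound by the myeloid factor Spi1 (PU.1) and was present in 28.3% of them. The 4 promoters below belong to genes that rose (Ctss and Ctsd), fell (Ctsl) or peaked at P15 (Ctsf), and the capitals mark CACGTG in Ctsd, Ctsl and Ctsf and GAGGAA, or its reverse complement, in Ctss.
Ctsd, chr7:142387778-142388077, minus strand: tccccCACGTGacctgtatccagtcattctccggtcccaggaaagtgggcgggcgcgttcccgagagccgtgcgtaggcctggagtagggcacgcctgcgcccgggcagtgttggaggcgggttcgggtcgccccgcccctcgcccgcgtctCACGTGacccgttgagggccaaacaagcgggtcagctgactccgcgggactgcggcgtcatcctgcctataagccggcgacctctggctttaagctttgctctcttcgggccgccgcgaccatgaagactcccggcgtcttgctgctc
Ctsf, chr19:4854915-4855214, plus strand: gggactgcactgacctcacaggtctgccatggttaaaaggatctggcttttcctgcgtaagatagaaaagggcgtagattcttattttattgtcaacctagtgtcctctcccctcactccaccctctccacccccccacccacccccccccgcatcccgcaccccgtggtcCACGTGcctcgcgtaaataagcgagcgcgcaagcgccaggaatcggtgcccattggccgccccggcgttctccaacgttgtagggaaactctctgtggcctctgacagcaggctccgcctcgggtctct
Ctsl, chr13:64370471-64370770, minus strand: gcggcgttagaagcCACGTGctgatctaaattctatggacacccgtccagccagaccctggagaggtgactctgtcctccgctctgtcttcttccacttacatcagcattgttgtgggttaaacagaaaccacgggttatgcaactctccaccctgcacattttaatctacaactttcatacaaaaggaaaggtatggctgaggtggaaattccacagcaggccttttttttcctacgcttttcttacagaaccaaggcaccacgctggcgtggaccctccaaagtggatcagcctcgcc
Ctss, chr3:95526536-95526835, plus strand: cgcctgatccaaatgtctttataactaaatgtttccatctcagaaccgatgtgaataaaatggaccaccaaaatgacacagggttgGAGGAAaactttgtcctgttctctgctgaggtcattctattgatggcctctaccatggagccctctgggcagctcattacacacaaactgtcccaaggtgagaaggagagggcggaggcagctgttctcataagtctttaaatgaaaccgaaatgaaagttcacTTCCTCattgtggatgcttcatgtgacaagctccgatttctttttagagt
Besides these, CACGTG occurred in the window of the downstream start of Ctsa, and GAGGAA occurred in those of Ctsc and Ctsk. The windows of Ctsz and of the upstream start of Ctsa held neither motif. A match describes the letters and does not show that a factor binds there.

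The libraries held between 23316107 and 38965078 fragments on genes, and 3 counts, taken as the floor, were between 0.0770 and 0.129 CPM, which covers counting error alone. Levels are CPM after TMM scaling of library sizes. The 6 microglial markers (Tmem119, P2ry12, Sall1, Fcrls, Olfml3 and Siglech) summed to 4259 ± 941 CPM (SD, n = 10) in P6 mice. In the 12 mice of each later age they summed to 11726 ± 2258 CPM at P15, and to 11989.5 ± 1247 CPM in adults of 8 weeks. The 6 neuron markers summed to between 276 and 926 CPM at P6, between 89.5 and 693 CPM at P15, and between 48.4 and 212 CPM at 8 weeks. The 6 markers of border macrophages (among them Mrc1, Pf4 and Cd163) ranged from 718 to 1564 CPM, from 277 to 1017 CPM and from 348 to 691 CPM. The 7 genes of the early response to dissociation summed to 5492 ± 665 CPM in P6 mice, 6705 ± 2020 CPM in P15 mice and 10589.8 ± 2235 CPM in adults. From P6 to 8 weeks 5 of them rose (Hspa1a the most, with log2FC = 5.12), Ier2 fell and Egr1 did not pass the test, and their part in the changes with age was not tested. None of the markers of the 12 lists was at 0 in every mouse. In bulk samples, fewer cells of a type and less RNA per cell cannot be told apart. P15 male 1 stood apart from the other P15 mice, with the lowest border macrophage markers, 277 CPM against at least 635 CPM in the other 11, and the highest neuron markers. P6 female 6, scaled together with the 34 others, had neuron markers at 1528 CPM and microglial markers at 1557 CPM, and was below every other P6 mouse for 9 of the 10 cathepsin genes (Ctss at 372 CPM and Ctsb at 2016 CPM, for example). Results that change without the former or with the latter are given with both values.

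Between P6 and 8 weeks, 6 of the 10 cathepsin genes rose (Ctss, Ctsh, Ctsd, Ctsc, Ctsf and Ctsa), 3 fell (Ctsk, Ctsl and Ctsb) and Ctsz did not pass the test. Ctss and Ctsh rose past 2-fold, and Ctsk fell past 2-fold. The test was edgeR's quasi-likelihood test with Benjamini-Hochberg adjustment over all genes tested (FDR below 0.05), and the 2-fold threshold was applied with glmTreat. Of all genes tested, 37.8% were higher and 36.6% were lower at 8 weeks, and 11.5% were higher and 12.4% lower past 2-fold. The median log2 fold change (log2FC) was 0.39 over the 10 cathepsin genes and 0.038 over all genes tested. Both shares of all genes are large, so a call by itself is no result about the cathepsin genes. With neural markers as a covariate, as described below, only Ctss and Ctsh were still called higher. Ctsa and Ctsz were then called lower, beside Ctsb and Ctsl.

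**Figure D1:**
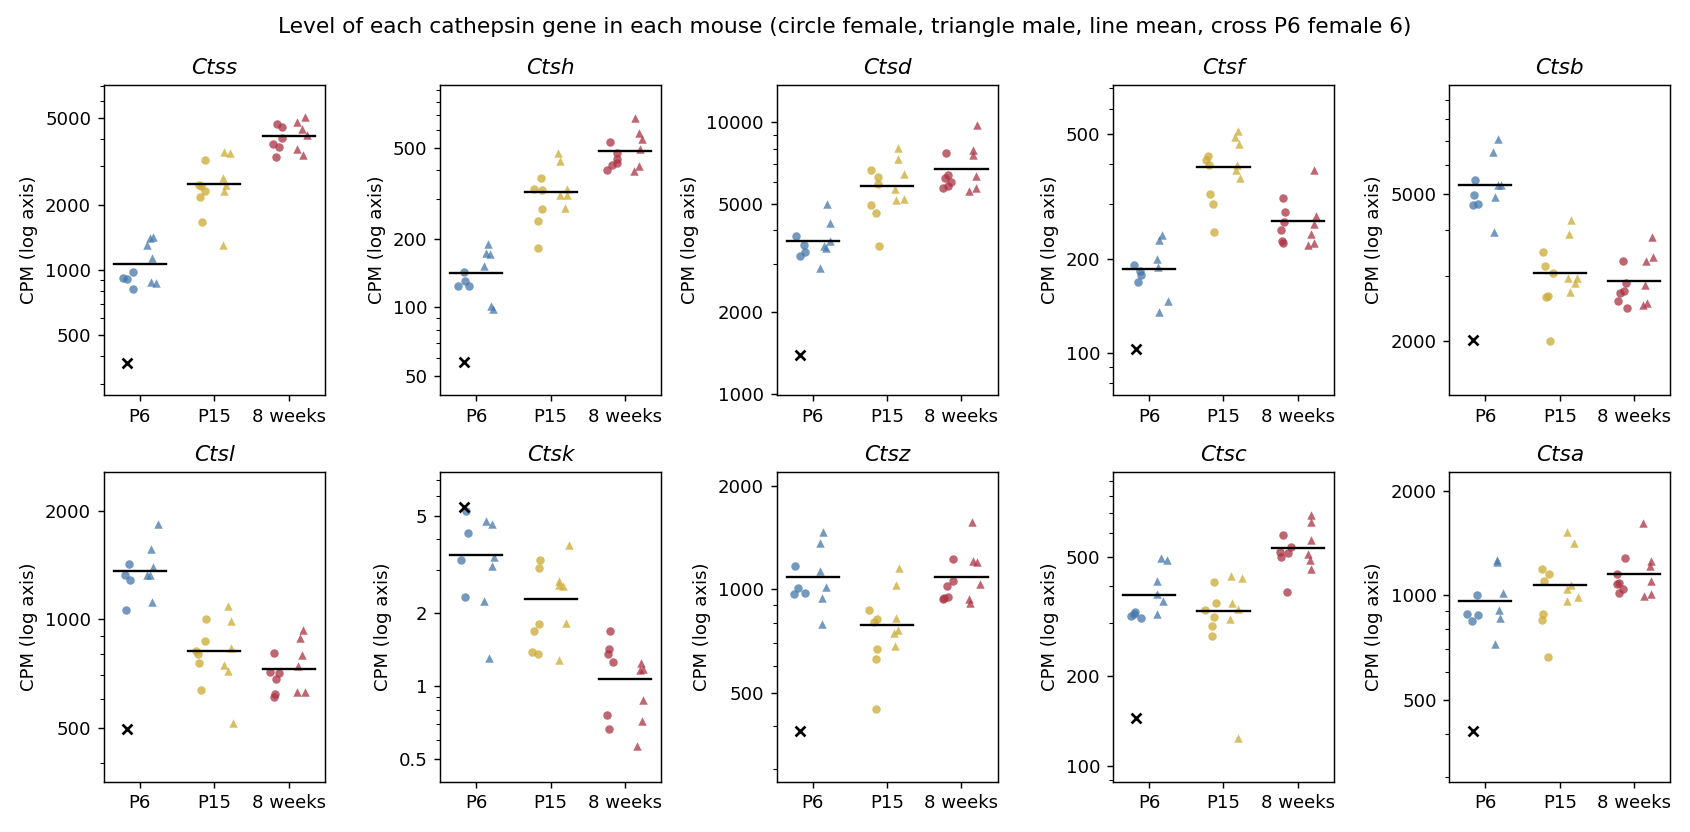
Level of each cathepsin gene (CPM, log axis) by age, with 1 point per mouse, circles for females, triangles for males, a line at the mean of the 34 mice and a cross for P6 female 6, which is outside that mean. Ctss, Ctsh and Ctsd at 8 weeks lie above every P6 mouse of the mean, Ctsb and Ctsl lie below, and Ctsf peaks and Ctsz dips at P15.

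Ctss (ENSMUSG00000038642, protein-coding), the cysteine protease of antigen presentation, changed most. It ranged from 818 to 1424 CPM at P6 with a median of 947 CPM, from 1295 to 3478 CPM at P15 with a median of 2437 CPM, and from 3298 to 5074 CPM at 8 weeks with a median of 4126 CPM. The 8-week mice exceeded the P6 mice without exception, as did 11 of the 12 P15 mice, and 10 of the 12 mice of 8 weeks exceeded every P15 mouse. The mean at 8 weeks was 3.89 times that at P6, with log2FC = 2.01 and a standard error of 0.141 (FDR = 4.88e-14, and 2.15e-08 against 2-fold). Both intervals contributed. The first gave 1.27 (FDR = 1.74e-09, standard error 0.137), and P15 to 8 weeks gave 0.73 (FDR = 1.98e-05, standard error 0.125). With neural markers as a covariate, the second step was 0.040 and did not pass (FDR = 0.817). Over the whole interval Ctss was then still higher but no longer past 2-fold, and Ctsb and Ctsl changed more, as given below. The P15 mouse that lay among the P6 mice was male 1, and without it the rise from P6 to P15 passed the 2-fold threshold (FDR against 2-fold 0.00760 in place of 0.0603). The same held over all 35 mice (0.0267).

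Ctsh (ENSMUSG00000032359, chr9:90054152-90076089), a cysteine protease that removes single residues from the amino end of peptides, rose over both intervals too. Its range was 98.7 to 189 CPM at P6 (median 137 CPM), 183 to 477 CPM at P15 (median 319 CPM) and 397 to 676 CPM at 8 weeks (median 461 CPM). P6 and 8 weeks did not overlap, and 11 of 12 P15 mice lay above every P6 mouse. Over the whole interval its log2FC was 1.80 (standard error 0.135, FDR = 2.13e-13, and 5.68e-07 against 2-fold). It was 1.20 from P6 to P15 (FDR = 2.44e-09) and 0.60 from P15 to 8 weeks (FDR = 1.61e-04), and these 2 steps differed (FDR = 0.0254). With neural markers as a covariate its second step was −0.054 (FDR = 0.760). Within a mouse, the fragments of Ctsh were a near-constant fraction of those of Ctss, with a median ratio of 0.134 in P6 mice, 0.131 in P15 mice and 0.115 in adults. P15 male 1 was again apart, at 0.210 against at most 0.142 in the other 11 P15 mice.

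Ctsd (ENSMUSG00000007891, chr7:142375911-142388038), the aspartic protease of the lysosome, ranged from 2897 to 5005 CPM at P6 (median 3513 CPM), from 3509 to 8035 CPM at P15 (median 5801 CPM) and from 5579 to 9798 CPM at 8 weeks (median 6284 CPM). Again P6 and 8 weeks did not overlap, and 9 of 12 P15 mice lay above every P6 mouse. From P6 to P15 it rose by 0.68 on the log2 scale (standard error 0.118, FDR = 1.07e-05). From P15 to 8 weeks the difference of 0.21 (standard error 0.110) did not pass the test (FDR = 0.112), nor did the difference between the steps (FDR = 0.0604). Over both intervals the log2FC was 0.89 (FDR = 6.71e-08), short of 2-fold. With neural markers as a covariate this call was lost, as given below. The highest value at 8 weeks was that of male 4, which was above the other 11 mice of its age for 6 of the 10 genes (Ctsa, Ctsb, Ctsd, Ctsf, Ctsh and Ctsz) and had the highest microglial markers of them, 13860.4 CPM, and the highest monocyte markers, 48.1 CPM against at most 46.5 CPM in the others.

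Ctsb and Ctsl fell from P6 to P15, and neither passed the test after P15. Ctsb (ENSMUSG00000021939, chr14:63122462-63145923), which cuts proteins both internally and from the carboxyl end, ranged from 3966 to 7083 CPM at P6 (median 5146 CPM). It ranged from 2000 to 4266 CPM at P15 (median 2967 CPM) and from 2455 to 3834 CPM at 8 weeks (median 2788 CPM). The P15 and 8-week mice overlapped throughout, while 11 of 12 P15 mice and all 12 mice at 8 weeks lay below every P6 mouse. The first step was −0.78 on the log2 scale (standard error 0.107, FDR = 2.12e-07) and the second −0.065 (standard error 0.101, FDR = 0.612), and these differed (FDR = 0.00257).

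Ctsl (ENSMUSG00000021477, chr13:64359337-64370890), a strong endopeptidase of the same family, ranged from 1060 to 1833 CPM at P6 (median 1327 CPM). The range was 515 to 1088 CPM at P15 (median 811 CPM) and 609 to 936 CPM at 8 weeks (median 711 CPM), and again P6 and 8 weeks did not overlap. Its first step was −0.73 (standard error 0.107, FDR = 7.90e-07) and its second −0.16 (standard error 0.102, FDR = 0.191). Without P15 male 1, whose Ctsl of 515 CPM was the lowest of its age, the second step was −0.24 and passed the test (FDR = 0.0432). Ctsl and Ctsb kept nearly the same proportion at every age, with a median of 0.259 fragments of Ctsl for each of Ctsb in P6 mice, 0.270 in P15 mice and 0.248 in adults. Over the whole interval the log2FC was −0.84 for Ctsb (FDR = 2.36e-08) and −0.89 for Ctsl (FDR = 9.76e-09).

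Ctsk (ENSMUSG00000028111), known as the collagen-degrading protease of osteoclasts, was detected with only 18 to 187 fragments per mouse. It ranged from 1.3 to 5.22 CPM at P6 (median 3.34 CPM), from 1.28 to 3.79 CPM at P15 (median 2.20 CPM) and from 0.567 to 1.67 CPM at 8 weeks (median 1.17 CPM). Although 9 of the 12 mice at 8 weeks lay below every P6 mouse, the ages overlapped. Over the whole interval its log2FC was −1.71 (standard error 0.234, FDR = 9.38e-08, and 0.00254 against 2-fold), made up of −0.62 to P15 (FDR = 0.0189) and −1.09 after it (FDR = 2.07e-04). Fibroblast markers (Col1a1, Col1a2, Col3a1, Dcn and Lum) moved the same way, from between 75.1 and 281 CPM at P6 to between 72.9 and 268 CPM at P15 and between 14.5 and 66.9 CPM at 8 weeks. Of the 10 genes, Ctsk alone was higher in P6 female 6, at 5.41 CPM, than in every other P6 mouse, and fibroblast markers in that mouse summed to 387 CPM. The part of these cells in the fall of Ctsk was not tested. With neural markers as a covariate, Ctsk lost its call over the whole interval and its place past 2-fold.

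Ctsf and Ctsz changed course at P15, and Ctsc passed the test only for the second step. Ctsf (ENSMUSG00000083282, chr19:4855130-4860918), a cysteine protease with a long propeptide, ranged from 135 to 237 CPM at P6 (median 185 CPM). At P15 the range was 244 to 513 CPM (median 398 CPM), so that all 12 mice lay above every P6 mouse. At 8 weeks it was back to between 221 and 385 CPM (median 252 CPM). The log2FC was 1.08 to P15 (standard error 0.114, FDR = 1.15e-09) and −0.57 after it (standard error 0.105, FDR = 5.28e-05). The difference between the steps, −1.65 (standard error 0.181, FDR = 1.91e-08), was the largest of the 10 genes in size. From P6 to 8 weeks a rise of 0.51 remained (FDR = 1.43e-04). With neural markers as a covariate the value of Ctsf over this interval was negative and was not called.

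Ctsz (ENSMUSG00000016256, chr2:174427493-174439039), a carboxypeptidase also called cathepsin X, ran the opposite way. It ranged from 791 to 1470 CPM at P6 (median 1013 CPM), from 448 to 1152 CPM at P15 (median 781 CPM) and from 913 to 1572 CPM at 8 weeks (median 1032 CPM). The log2FC was −0.46 to P15 (standard error 0.119, FDR = 0.00140) and 0.47 after it (standard error 0.113, FDR = 0.00115), while the ranges of neighbouring ages overlapped. With neural markers as a covariate the return after P15 was lost, at −0.11 (FDR = 0.499). The steps differed by 0.93 (FDR = 6.12e-04), and P6 and 8 weeks differed by 0.011 with a standard error of 0.120 (FDR = 0.935).

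Ctsc (ENSMUSG00000030560, chr7:88278085-88310888), which activates the serine proteases of leukocyte granules, rose only after P15 by the test. It ranged from 312 to 497 CPM at P6 (median 341 CPM), from 124 to 433 CPM at P15 (median 333 CPM) and from 383 to 690 CPM at 8 weeks (median 518 CPM). The lowest P15 value was that of male 1, and the other 11 P15 mice lay at 273 CPM or above. The log2FC was −0.13 to P15 (FDR = 0.391) and 0.70 after it (standard error 0.127, FDR = 4.58e-05), and the steps differed by 0.83 (FDR = 0.00458). The rise after P15 did not pass with neural markers as a covariate (0.11, FDR = 0.592). From P6 to 8 weeks Ctsc gained 0.56 (FDR = 4.26e-04), with 9 of 12 mice above every P6 mouse. With the covariate its value over this whole interval was negative and was not called.

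Ctsa (ENSMUSG00000017760, chr2:164832873-164841032), the serine carboxypeptidase that protects the sialidase Neu1 in the lysosome, changed least among the genes called. Its range was 725 to 1265 CPM at P6 (median 898 CPM), 663 to 1522 CPM at P15 (median 1057 CPM) and 997 to 1619 CPM at 8 weeks (median 1090 CPM). The ages overlapped widely, and the rise over the whole interval, 0.28 on the log2 scale (standard error 0.112, FDR = 0.0270), rested on single mice. Without 8 weeks male 4, P6 female 2 or P6 female 5 the FDR was 0.0524, 0.0944 or 0.0780, respectively. With neural markers as a covariate, Ctsa was instead called lower at 8 weeks than at P6, as given below. Neither step passed the test (0.16 to P15, FDR = 0.206, and 0.11 after it, FDR = 0.386). Neu1 itself rose by 0.25 from P6 to 8 weeks (FDR = 0.0271).

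**Figure D2:**
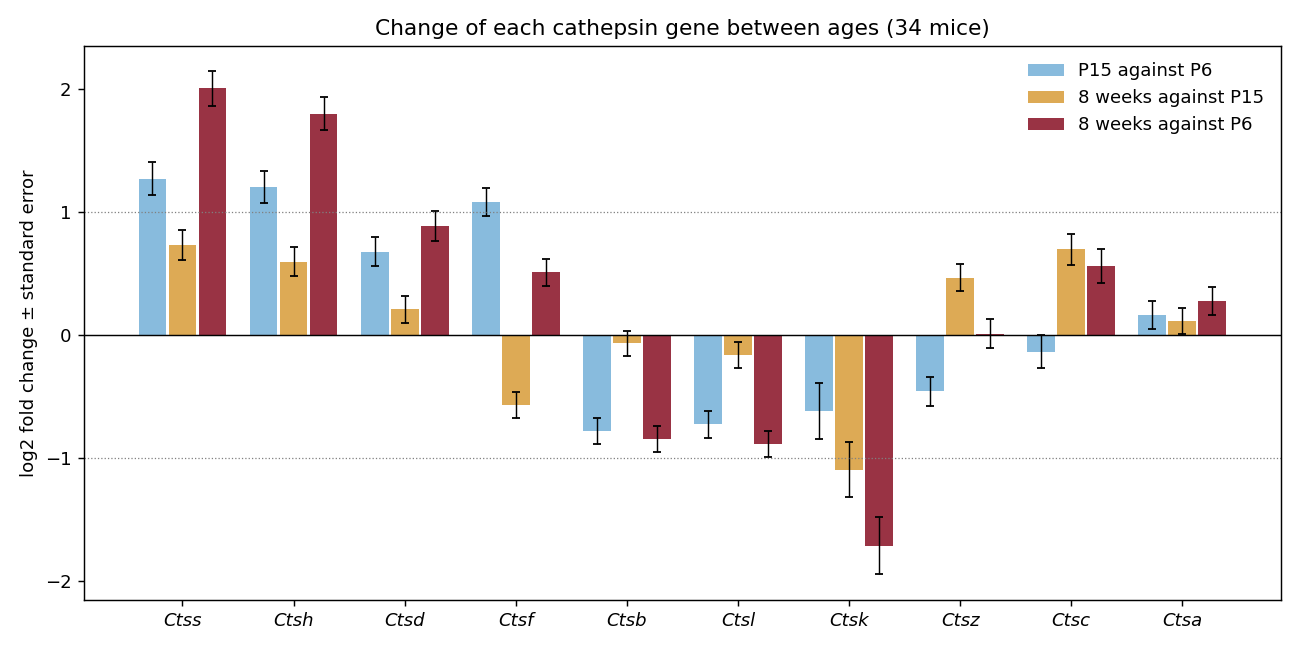
Log2 fold change of each cathepsin gene from P6 to P15, from P15 to 8 weeks and over both intervals (bars, with standard errors as whiskers) from the edgeR fit of 34 mice. Dotted lines mark a 2-fold change, and Ctsf, Ctsz and Ctsc are the genes whose bars for the intervals point in opposite directions.

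By interval, 4 genes rose (Ctss, Ctsh, Ctsf and Ctsd) and 4 fell (Ctsb, Ctsl, Ctsk and Ctsz) from P6 to P15, and none passed the 2-fold threshold in the edgeR fit, although Ctss did so in the fits named above. Of all genes tested, 30.4% were higher and 31.4% lower over this interval, with 4.87% higher and 4.85% lower past 2-fold. From P15 to 8 weeks, 4 genes rose (Ctss, Ctsc, Ctsh and Ctsz) and 2 fell (Ctsk and Ctsf), again with none past 2-fold, against 24% higher and 23.9% lower, and 1.2% higher and 3.07% lower past 2-fold, among all genes. At an unadjusted p under 0.05 these counts of genes passing in either direction were 8 and 6, the same as after adjustment, against 65.0% and 54.7% of all genes. No cathepsin gene passed 2-fold by limma-voom or DESeq2 over either interval. The steps differed for 6 of the 10 (Ctsf, Ctsz, Ctsb, Ctsc, Ctsl and Ctsh) and for 33.4% of all genes. Ranges did not overlap between P6 and 8 weeks for 5 of the 10, against 29.6% of all genes. Between P6 and P15 this held for Ctsf alone (13% of all genes), and between P15 and 8 weeks for none of the 10 (3.37% of all genes).

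Levels can be compared between genes only per length, and were divided by the union of annotated exons (GENCODE M21). Per kilobase, Ctsd led at P6 with 1558 ± 252 CPM per kb (SD, n = 10). It was followed by Ctsb at 876 ± 151, Ctss at 782 ± 171 and Ctsz at 752 ± 142 CPM per kb, whose ranges overlapped from each to the next. At 8 weeks Ctss stood first with 3043 ± 429 CPM per kb and Ctsd next with 2860 ± 538 CPM per kb (n = 12), and these overlapped. Ctsz followed at 753 ± 133 and Ctsb at 482 ± 71.8 CPM per kb, with overlapping ranges too. At P15 the order was Ctsd (2476 ± 528), Ctss (1831 ± 485), Ctsz (546 ± 127) and Ctsb (505 ± 99.7 CPM per kb), and ranges overlapped between Ctsd and Ctss and between Ctsz and Ctsb. The lower places changed as well, since Ctsh stood ninth at P6 (31.3 ± 6.81 CPM per kb) and seventh at 8 weeks (108 ± 19.1 CPM per kb). Ctsk was last at every age, without overlap with the gene before it. Some places turn with the length used. Per kilobase of the longest principal transcript, Ctsd came before Ctss at 8 weeks (as it did without division by length), Ctsb before Ctsz at P15, and Ctsh stood sixth at 8 weeks.

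The summed level of the 10 genes per kilobase was 4518 ± 775 at P6, 5919 ± 1248 at P15 and 7748 ± 1189 CPM per kb at 8 weeks. Without division by length the sums were 14139 ± 2377, 15084 ± 3074 and 18028 ± 2774 CPM, a smaller rise, and per kilobase of the longest principal transcript they were 5194 ± 888, 6719 ± 1405 and 8662 ± 1324 CPM per kb. Of the sum per kilobase, Ctss made up 17.3% ± 1.76 in P6 mice, 30.8% ± 4.29 in P15 mice and 39.4% ± 2.20 in adults. Ctsb went the other way, from 19.4% ± 0.518 to 8.57% ± 0.242 and 6.23% ± 0.216. Ctsd made up between 32.6% and 36% at P6, between 38.6% and 52.8% at P15, above every P6 mouse, and between 34.7% and 40.9% at 8 weeks. These shares depend on the length used, because the union of exons counts every annotated isoform. With the longest principal transcript of each gene in its place, Ctss made up 15% at P6 and 35.3% at 8 weeks, and Ctsb 21.5% and 7.11%. Without division by length, Ctss made up 7.49% and 23.0%, and Ctsb 37.4% and 16.2%. Ctsd then made up 25.9%, 38.6% and 37.2% at the successive ages, and 33.2%, 40.8% and 36.4% with the principal transcript. Shares are parts of a whole and are given without a test.

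**Figure D3:**
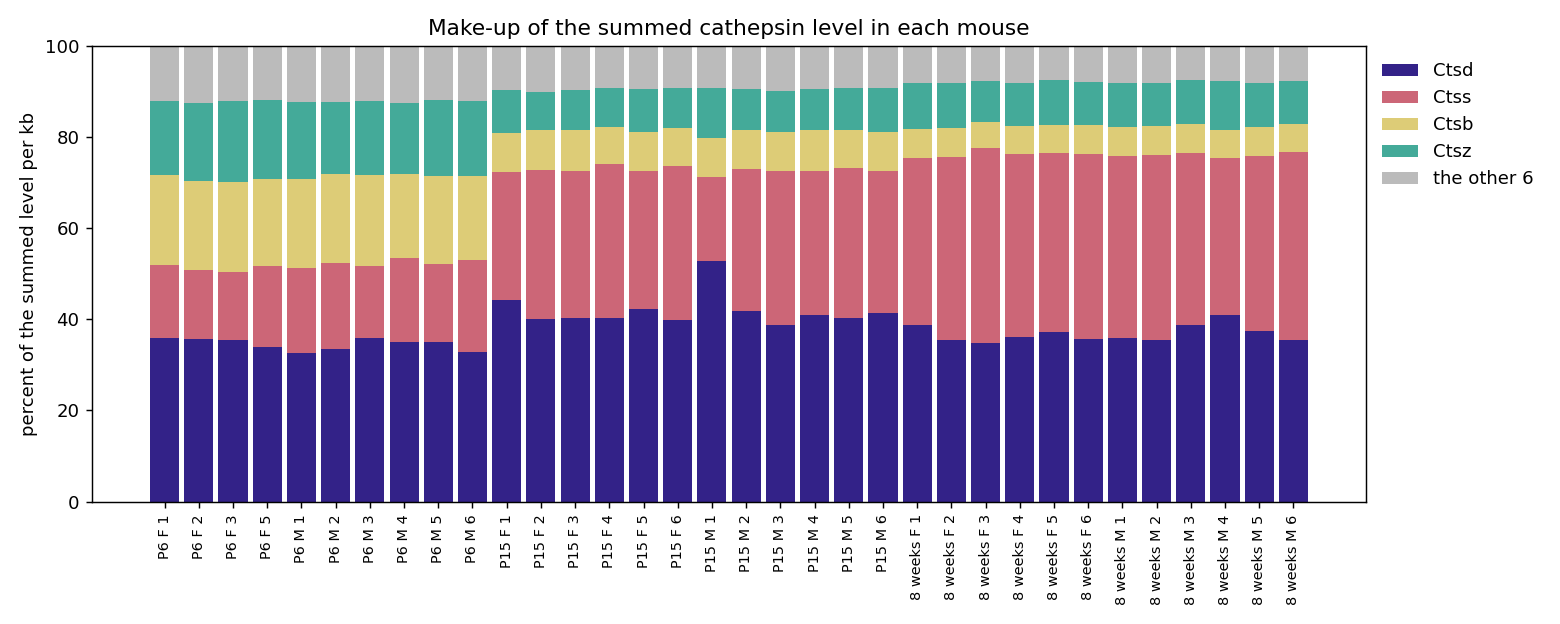
Percent of the summed per-kilobase level of the 10 cathepsin genes taken by Ctsd, Ctss, Ctsb, Ctsz and the other 6 together, with 1 bar for each of the 34 mice (F female, M male). The share of Ctss widens from P6 to 8 weeks, that of Ctsb narrows, and P15 male 1 has the highest share of Ctsd, 52.8%, and the lowest share of Ctss at its age, 18.4%.

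A ratio of 2 genes within a mouse does not depend on library size or on scaling. For every fragment of Ctsb there were 0.168 to 0.245 fragments of Ctss at P6, 0.478 to 0.924 at P15 and 1.25 to 1.68 at 8 weeks, so that no age overlapped another. Without P15 male 1 the P15 range of this ratio began at 0.722. Ctss over Ctsl rose from between 0.618 and 0.980 to between 2.51 and 3.50 and between 5.39 and 6.33, also without overlap. Ctsb over Ctsd fell from between 1.37 and 1.54 at P6 to between 0.420 and 0.571 at P15 and between 0.391 and 0.472 at 8 weeks, where the later ages overlapped. Without P15 male 1 its lowest value at P15 was 0.506, and the later ages did not overlap.

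**Figure D4:**
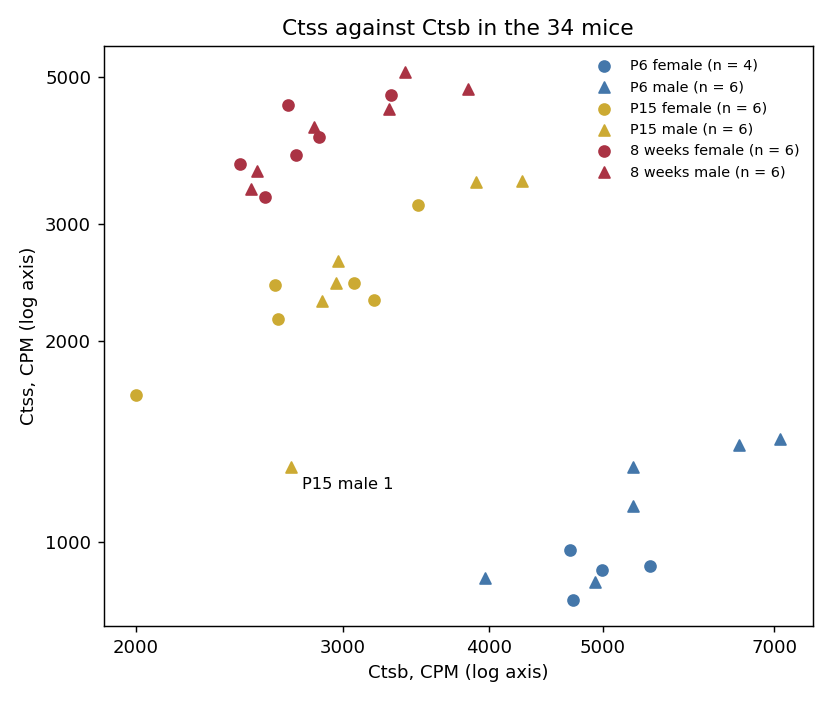
Ctss against Ctsb in each of the 34 mice (both in CPM, log axes), coloured by age with circles for females and triangles for males. The P6 mice lie at the lower right and the 8-week mice at the upper left, and P15 male 1 lies below the other P15 mice.

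Mice that were high for 1 cathepsin gene were often high for others of the same age. Among the 9 genes with at least 10 CPM in every mouse, P6 male 5 was the highest P6 mouse for 7, and P15 male 6 was the highest P15 mouse for 7. These mice also had low neuron markers for their age, 307 CPM in P6 male 5, where only P6 male 1 was lower at 276 CPM, and 89.5 CPM in P15 male 6, the lowest of that age. P6 male 1 was among the top 3 of its age for all 9 genes. P15 female 2, the lowest for 6 of the 9, had the lowest microglial markers of its age, 8183 CPM. P15 male 1 was lowest for Ctsc, Ctsl and Ctss and highest for Ctsf (513 CPM). At 8 weeks the mice were mixed. Of those with neuron markers below 90 CPM, male 4 (57.9 CPM) and female 5 (76.9 CPM) had 8 and 7 of the 9 genes in the top 3 of their age. Female 2 (67.4 CPM) had none in the top or bottom 3, while female 4 (48.4 CPM) and male 5 (86.7 CPM) had 4 and 8 in the bottom 3. The part of RNA from other cells in these differences between mice was not tested.

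Neural markers also moved with age, and their mean log2 CPM lay between 4.75 and 6.47 at P6, between 2.83 and 5.60 at P15 and between 1.83 and 3.43 at 8 weeks. P6 and 8 weeks did not overlap, so that these 2 ages and neural RNA cannot be told apart in a fit that holds both, while P15 overlapped each of them. With that mean as a covariate, Ctss and Ctsh were still higher at 8 weeks than at P6 (log2FC 0.76, FDR = 9.51e-04, and 0.65, FDR = 0.00523) and no longer past 2-fold. Ctsb and Ctsl fell by 1.75 and 1.82 on the log2 scale, past 2-fold, and the values of Ctsa, Ctsc, Ctsf and Ctsz were negative, with Ctsa (−0.71) and Ctsz (−1.0) called lower. Ctsk lost its call and its place past 2-fold (−1.12, FDR = 0.0992), and Ctsd lost its call (0.022, FDR = 0.936). In all 2 genes were then higher and 4 lower at 8 weeks than at P6, while the shares of all genes fell too, to 25.3% higher and 23.5% lower. From P15 to 8 weeks no cathepsin gene was then higher and 4 were lower (Ctsa, Ctsb, Ctsf and Ctsl), against 19.9% and 19.8% of all genes.

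No cathepsin gene passed the test between males and females. In edgeR, 0 of 10 were called at P6, P15 and 8 weeks, against 0.0511%, 0.0681% and 0.114% of all genes, and the smallest FDR was 0.696, 0.268 and 1.0. At an unadjusted p under 0.05 there were 0, 1 (Ctsf at P15, 0.31 higher in males, standard error 0.148) and 0 genes, against 7.1%, 18.2% and 2.94% of all genes, and limma-voom and DESeq2 called 0 at each age as well. The estimates leaned to males for 9 of 10 genes in P6 mice, 8 in P15 mice and 9 in adults, with medians of 0.15, 0.24 and 0.14 on the log2 scale against medians of 0.0020, 0.014 and 0.013 over all genes. Genes of a mouse vary together, so these counts are not independent observations. The largest estimate was 0.37 for Ctss at P6, with a standard error of 0.199. The interaction of sex and age was called for 0 of the 10 in edgeR (smallest FDR 0.739, for Ctsf; 0 at an unadjusted p under 0.05, against 11.8% of all genes) and for 0% of all genes, and it was not run in limma-voom or DESeq2.

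Profiles were compared with all other genes whose mean log2 CPM was at least 5 (5736 genes), by the root mean square difference of mean-centred log2 CPM over the 34 mice. The nearest of all was Cd68, a lysosomal membrane protein of macrophages, which differed from Ctsa by 0.075. Itgb2, the common chain of the leukocyte integrins, was nearest to Ctsh (0.117), and its level rose from 124 CPM at P6 to 267 CPM at P15 and 438 CPM at 8 weeks. Entpd1, the ectonucleotidase CD39, was nearest to Ctss (0.143), with 266, 611 and 935 CPM at these ages. For the others the nearest genes were Gpr108 for Ctsd (0.10), Sord for Ctsb (0.113), Plod1 for Ctsf (0.125), Cndp2 for Ctsz (0.130), Arpc5 for Ctsl (0.135) and Tlr1 for Ctsc (0.162). Ctsk, at its low level, had no near neighbour, the nearest being Fyn at 0.443. Among the 10 themselves, the nearest pairs were Ctsb with Ctsl (0.131), Ctsh with Ctss (0.196) and Ctsa with Ctsz (0.256). With P6 female 6 included, the nearest gene was the same for 7 of the 10. These distances are descriptions, and the mice of an age share that age.

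Of 13 further cathepsin genes on a fixed list, 3 passed the filter on low counts, and from P6 to 8 weeks 2 rose and 1 fell, with a median log2FC of 1.56. Ctso, a broadly expressed relative, rose from 37.8 ± 7.53 CPM at P6 (n = 10) to 76.9 ± 13.1 CPM at P15 and 108 ± 9.46 CPM at 8 weeks (n = 12 each), a log2FC of 1.555 (standard error 0.0992, FDR = 4.07e-15), past 2-fold. Ctsw, known from cytotoxic lymphocytes, rose past 2-fold from 0.568 ± 0.354 to 3.59 ± 1.18 CPM between P6 and 8 weeks (log2FC 2.62, FDR = 1.01e-10), while lymphocyte markers rose from between 2.06 and 10.9 CPM to between 7.28 and 33.6 CPM. Ctse, the aspartic relative of Ctsd, fell from 3.95 ± 1.09 to 2.27 ± 0.923 CPM (log2FC −0.78, FDR = 0.00135). Of the remaining 10 genes, the neutrophil protease Ctsg reached 14 fragments in a mouse, 7 had no fragment in any of the 34 mice, and Cts8 and Ctsll3 had at most 1. Several of these last 9 are known from the rodent placenta.

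Of the 11 listed inhibitors of cysteine cathepsins 8 were tested. Of these, 3 were higher and 5 lower at 8 weeks than at P6, 2 and 4 of them past 2-fold, and the median log2FC was −0.92. Of all genes tested, 37.8% were higher and 36.6% lower over this interval, and 11.5% and 12.4% were so past 2-fold. Cst3 (cystatin C), a secreted inhibitor, rose from between 1747 and 3106 CPM at P6 to between 5530.1 and 13649.6 CPM at P15 and between 11017 and 22603 CPM at 8 weeks (log2FC 2.65, standard error 0.145, FDR = 8.32e-17). The largest falls were those of the stefins Stfa1, Stfa2 and Stfa3, from 2.32 ± 1.43, 1.28 ± 0.646 and 0.976 ± 0.600 CPM at P6 to 8, 1 and 0 fragments in all over the 12 mice at 8 weeks. Stefins are near-identical copies, and reads of 1 may have been counted on another or dropped. Stfa2 and Stfa3 reached the filter only through P6 mice, where they had to be higher to be tested. The counts and median of this list include them, so no direction of the list is drawn from these. Atp6v0d2 in the proton pump that acidifies lysosomes showed the largest fall of its list, from 11.6 ± 4.17 CPM at P6 to 0.325 ± 0.203 CPM at P15 and 0.381 ± 0.191 CPM at 8 weeks (log2FC −4.92, FDR = 3.75e-15). Of 17 pump genes, 4 were higher and 9 lower at 8 weeks than at P6, with a median of −0.33, and Atp6v0d2, which also reached the filter only through P6 mice, was the 1 gene past 2-fold.

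Of 10 genes that sort hydrolases to lysosomes, 4 were higher and 2 lower at 8 weeks than at P6, with a median of 0.088. Of all genes tested, 37.8% were higher and 36.6% lower. In this list only the sorting receptor Sort1 passed 2-fold, from 210 ± 12.7 to 470 ± 49.5 CPM (log2FC 1.16, FDR = 1.65e-14). Lgmn (legumain), which processes cathepsin precursors, was 0.34 higher at 8 weeks (standard error 0.125, FDR = 0.0158), with 3100 ± 667, 4367 ± 997 and 3854 ± 610 CPM at the 3 ages. Of 7 transcription factors of lysosomal and myeloid genes, 4 were higher and 1 lower, with a median of 0.52. Tfeb rose from 33.7 ± 6.90 to 57.6 ± 9.36 CPM (log2FC 0.80, FDR = 3.34e-08), and Irf8 and Zkscan3 rose past 2-fold (1.23 and 1.21). Tfec, a relative of Tfeb, fell past 2-fold from 14.0 ± 2.89 to 2.52 ± 0.612 CPM (log2FC −2.43, FDR = 2.71e-14). Spi1 had 337 ± 78.6 CPM at P6 and 348 ± 65.2 CPM at 8 weeks, a log2FC of 0.072 with a standard error of 0.123 (FDR = 0.606).

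All 7 genes of MHC class II and the invariant chain rose past 2-fold from P6 to 8 weeks, with a median log2FC of 2.88. The invariant chain Cd74, the substrate of Ctss, went from 117 ± 31.2 CPM at P6 to 176 ± 55.6 CPM at P15 and 316 ± 83.5 CPM at 8 weeks (log2FC 1.47, standard error 0.164, FDR = 1.82e-09). Larger changes were those of Ciita (3.90), the activator of these genes, H2-Eb1 (3.62) and H2-Aa (3.51). Ciita was near the floor at P6, at 0.268 ± 0.159 CPM with the lowest mouse at 0.0520 CPM, and reached 4.10 ± 1.15 CPM at 8 weeks. Of the 3 monocyte markers, Ccr2 and Ly6c2 rose over the same interval and Plac8 did not pass the test, and their sum was between 6.26 and 14.7 CPM at P6 and between 15.1 and 48.1 CPM at 8 weeks. Of the 6 border macrophage markers 4 fell (Mrc1, Pf4, F13a1 and Lyve1), and Cd163 and Ms4a7 did not pass the test. Their part in the rise of Ctss and of these genes was not tested. Of the 4 proteases activated by Ctsc that were tested, Gzma (3.61) and Gzmb (2.96) rose and Cma1 (−3.35) and Prtn3 (−2.46) fell, all 4 past 2-fold and all below 20 CPM in every mouse. Prtn3 reached the filter only through P6 mice. The 5 lymphocyte markers rose over the same interval, among them Cd3e (log2FC 2.58) and Ncr1 (5.15, from 0.0419 to 1.4 CPM). Ncr1 reached the filter only through 8-week mice, where it had to be higher to be tested, and its P6 mean lay below the floor. The part of lymphocytes in the rise of the granzymes was not tested. Among the 3 genes that share a complex or a pathway with Ctsa, Neu1 and Glb1 were higher and Galns lower at 8 weeks, with none past 2-fold by edgeR.

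**Figure D5:**
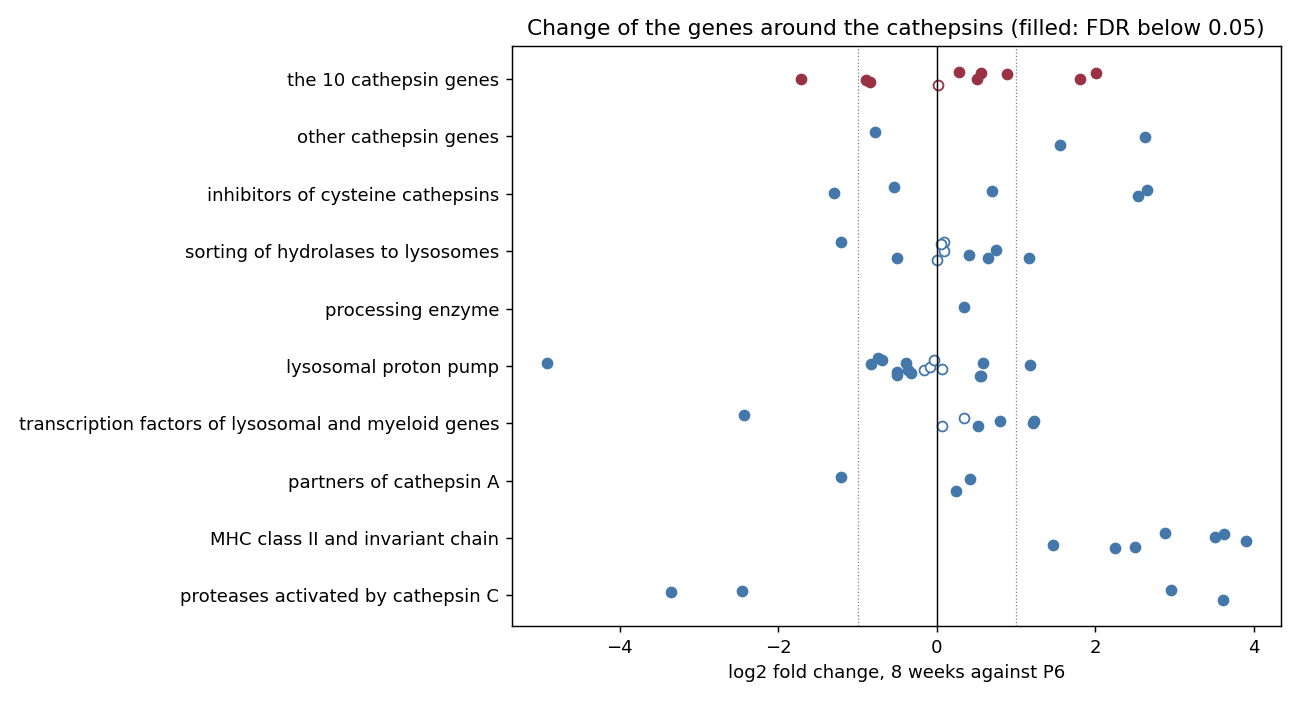
Log2 fold change from P6 to 8 weeks of the 10 cathepsin genes (red) and of the genes on 9 fixed lists around them (blue), with 1 point per gene, filled where the FDR was below 0.05 and dotted lines at 2-fold. The stefins Stfa1, Stfa2 and Stfa3, at or near 0 at 8 weeks, are not drawn, and the MHC class II genes lie between 1.47 and 3.90.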

How the data were processed

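Microglial mRNA of 35 mice was analysed from the raw counts that the authors deposited, whole numbers of fragments per gene in 1 column per mouse. Reads were aligned with STAR to GRCm38/mm10 and counted with featureCounts, which the study ran by strand, so that genes overlapping on opposite strands were kept apart. The annotation release is not given in the sources used here. GENCODE M21 named 55141 of 55401 identifiers. All samples used here are separate mice, and no library batch is given. The study does not name the mouse it removed as an outlier, and P6 female 6 was left out here by the rule for these genes.

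Counts were scaled by TMM and fitted in edgeR 4.0.16 (R 4.3.3) with glmQLFit (robust) and 1 mean for each of the 6 groups of age and sex. Age contrasts averaged the sexes. Tests were two-sided, by glmQLFTest and by glmTreat against 2-fold, adjusted over 17612 genes. The fit was tested on simulated data with known changes. Log2 CPM used a prior count of 2. Python 3.11.15 with pandas 2.3.3, numpy 2.4.6, scipy 1.17.1 and matplotlib 3.10.9 made the other values.

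The 10 genes, the gene lists and the tests were chosen with earlier results of these data known. Named are the 10 genes, the nearest profile of each, 6 genes fixed by name (Lgmn, Cst3, Tfeb, Spi1, Cd74 and Neu1), and up to 3 genes per list with the largest change past 2-fold from P6 to 8 weeks. Ctse, Ctsg, Cts8, Ctsll3, Prtn3, Glb1, Galns and the cell type markers with their own calls were named after their values were seen. The alternatives added P6 female 6 back, replaced TMM by library size alone or by the size factors of DESeq2 1.42.0, and replaced edgeR by that tool or by limma-voom (limma 3.58.1). Others were no filter, at least 10 counts in every mouse, age without sex, each sex alone, the compared ages alone, the replicate block, a neural marker covariate and each P6 female left out. Leaving out P15 male 1 or 8 weeks male 4, and the principal transcript as length, were added after seeing the data. The replicate numbers do not pair the mice, since same-numbered mice are different animals. Deviations of same-numbered mice across groups correlated between −0.536 and 0.691, and above 0.1 in 27 of 80 pairs. Pairs with different numbers were not compared, so this count cannot exclude shared handling by number. The miRNA libraries were not analysed here.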

Additional observations from a re-analysis of the deposited data

Results flagged for a closer look

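Among 60 sets of values (10 genes in 6 groups of age and sex), 2 held a mouse flagged by Dixon's test. In these its distance to the nearest of its group, divided by the range of the group, exceeded the 95% critical value. Chance alone flags about 1 in 20. Ctsd in 8 weeks female 5 was 7681 CPM, with the other 5 females between 5720 and 6369 CPM. Ctsf in 8 weeks male 4 was 385 CPM, with the other 5 males between 221 and 274 CPM.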

How the results depend on the processing

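The calls among the 10 genes did not move under DESeq2's size factors, limma-voom, DESeq2, either filter, age without sex, the compared ages alone or the replicate block, under which 6 genes were again higher and 3 lower at 8 weeks than at P6. Library size alone shifted the median of all genes by −0.142 from P6 to 8 weeks and by −0.127 from P6 to P15. Relative to the median of all genes no cathepsin gene moved by more than 0.013 in any interval, while Ctsa lost its call (0.14, FDR = 0.119) and Ctsd gained one from P15 to 8 weeks (0.20).

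The neural marker covariate moved the most. Under it 2 genes were higher at 8 weeks than at P6 (0 past 2-fold, with 2 lower past 2-fold), and 0 were higher and 4 lower at 8 weeks than at P15. Of all genes 25.3% and 23.5% were then higher and lower over the whole interval (11% and 5.0% past 2-fold), and 19.9% and 19.8% after P15. From P6 to 8 weeks the log2FC became −0.71 for Ctsa, −0.48 for Ctsc, −0.16 for Ctsf and −1.0 for Ctsz. From P6 to P15 Ctsa became −0.26, and from P15 to 8 weeks Ctsa, Ctsh and Ctsz became −0.45, −0.054 and −0.11. The cause was not tested, and the covariate does not overlap between P6 and 8 weeks, while P15 overlaps both. In males alone, 2 genes were lower at P15 than at P6, the steps differed for 1, and 4 genes were higher at 8 weeks than at P6 and 3 than at P15. In females alone these counts were 4, 4, 5 and 4. The shares of all genes under these 4 calls were 23.1%, 22.4%, 28.0% and 11.3% in males and 28.4%, 22.1%, 34.6% and 14.7% in females. Past 2-fold from P6 to P15, 1 gene (Ctss) was higher over all 35 mice, in females alone and without P15 male 1, against 4.8%, 4.32% and 5.21% of all genes. Leaving out each P6 female in turn kept between 5 and 6 genes higher and 3 lower at 8 weeks than at P6, with Ctsa between 0.22 and 0.27.

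Ctsk rested on 18 to 187 fragments per mouse, and the other 9 genes on at least 3678.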
